A study of Homo sapiens with 10 samples.

Results

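The genes described are the zinc finger genes of chromosome 19 bands q13.2 to q13.33. They were chosen by position and name alone: genes on chromosome 19 whose smallest start lies above 39 and up to 51 Mb in hg38 and whose symbol begins with ZNF or ZFP and a digit. The rule found 40 of the 58884 genes counted, of which 33 are protein coding, 6 are long non-coding RNAs and 1 is an unprocessed pseudogene. RNA was measured in 6 libraries of HCT116, a human colorectal carcinoma line labelled as wild type, and in 4 libraries of DNMT1 KO cells. The latter are a single derivative line of HCT116 in which exons of DNMT1, the maintenance DNA methyltransferase, were deleted, and which still makes a shortened DNMT1 protein at a reduced level. It is therefore a hypomorph rather than a null. No treatment or time course was applied, and both lines were grown in the same medium.

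Most genes of this family encode proteins with an array of C2H2 zinc fingers, each of which can contact a few bases of DNA. In the KRAB subfamily, the array follows a KRAB domain that binds the co-repressor TRIM28, which in turn brings in the H3K9 methyltransferase SETDB1 and heterochromatin proteins. Many KRAB zinc finger proteins bind transposable elements. The genes arose by repeated duplication and lie in clusters on chromosome 19, where neighbouring copies resemble each other in sequence. DNA methylation at CpG-rich promoters is a known means by which such genes are kept silent in cancer cells.

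The members were unevenly spaced. A run of 25 members, in which each start lay less than 0.2 Mb from the next, covered chr19:43827321-44500524 and held 20 coding and 5 non-coding genes. The other 15 members lay outside it. The promoters of 6 genes of this run are printed to set side by side promoters of nearby genes that differed in expression. Their similarity in sequence was not measured. ZNF222 and ZNF234 were lower in DNMT1 KO, ZNF230 and ZNF225 were higher, and ZNF226 and ZNF224 were not called either way. Each window runs from 250 bases before to 50 bases after a RefSeq start, 5′ to 3′ on the plus strand of GRCh38.p14, and capitals mark CpG dinucleotides, the sites that DNMT1 methylates.
ZNF222, chr19:44025129-44025428: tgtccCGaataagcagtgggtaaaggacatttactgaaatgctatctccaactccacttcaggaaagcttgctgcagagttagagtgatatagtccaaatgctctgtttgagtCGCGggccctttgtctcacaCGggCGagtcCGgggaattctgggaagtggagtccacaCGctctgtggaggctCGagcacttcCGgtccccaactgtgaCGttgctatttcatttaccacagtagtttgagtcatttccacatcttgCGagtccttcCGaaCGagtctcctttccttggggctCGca
ZNF234, chr19:44141304-44141603: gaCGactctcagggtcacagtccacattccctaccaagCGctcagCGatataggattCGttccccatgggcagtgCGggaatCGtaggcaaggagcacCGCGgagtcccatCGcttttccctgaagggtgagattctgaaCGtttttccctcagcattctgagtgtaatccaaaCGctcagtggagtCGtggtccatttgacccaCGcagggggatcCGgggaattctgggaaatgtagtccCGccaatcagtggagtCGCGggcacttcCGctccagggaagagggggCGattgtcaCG
ZNF230, chr19:44002707-44003006: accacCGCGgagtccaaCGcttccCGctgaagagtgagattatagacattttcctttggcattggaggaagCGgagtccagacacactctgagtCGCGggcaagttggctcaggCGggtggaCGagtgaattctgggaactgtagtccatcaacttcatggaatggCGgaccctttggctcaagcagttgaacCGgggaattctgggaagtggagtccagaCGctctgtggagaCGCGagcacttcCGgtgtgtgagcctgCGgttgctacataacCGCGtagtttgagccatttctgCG
ZNF225, chr19:44113149-44113448: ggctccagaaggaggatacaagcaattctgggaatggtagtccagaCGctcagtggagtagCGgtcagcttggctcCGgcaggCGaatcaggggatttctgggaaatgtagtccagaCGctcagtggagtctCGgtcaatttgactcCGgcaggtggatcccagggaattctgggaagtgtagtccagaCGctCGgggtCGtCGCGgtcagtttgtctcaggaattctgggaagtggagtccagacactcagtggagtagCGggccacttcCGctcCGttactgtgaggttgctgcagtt
ZNF226, chr19:44164850-44165149: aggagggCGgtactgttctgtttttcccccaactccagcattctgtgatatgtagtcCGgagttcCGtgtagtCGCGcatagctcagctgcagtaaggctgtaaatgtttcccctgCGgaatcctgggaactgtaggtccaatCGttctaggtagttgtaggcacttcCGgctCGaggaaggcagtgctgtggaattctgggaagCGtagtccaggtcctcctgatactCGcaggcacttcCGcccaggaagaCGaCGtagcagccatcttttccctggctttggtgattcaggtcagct
ZNF224, chr19:44094111-44094410: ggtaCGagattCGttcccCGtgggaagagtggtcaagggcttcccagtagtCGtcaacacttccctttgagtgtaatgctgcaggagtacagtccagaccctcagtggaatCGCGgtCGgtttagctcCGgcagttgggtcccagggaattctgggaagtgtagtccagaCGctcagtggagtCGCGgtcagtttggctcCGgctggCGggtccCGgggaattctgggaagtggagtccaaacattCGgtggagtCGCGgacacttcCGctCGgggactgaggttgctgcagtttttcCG

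These windows hold 14 CpGs for ZNF222, 20 for ZNF234, 19 for ZNF230, 15 for ZNF225, 14 for ZNF226 and 20 for ZNF224. The numbers for the lower genes thus lie within the range of their neighbours. The window of ZNF225 starts from a RefSeq start that lies 1218 bases from the gene's outermost start in the count tables. A short run of letters, TTCTGGGAA, recurs in all 6 windows, once in ZNF222, ZNF234 and ZNF226, in 2 copies in ZNF230 and ZNF224 and in 4 copies in ZNF225.

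A RefSeq window was found for 33 of the 40 members (not for ZNF221, ZNF155, ZNF223, ZNF233, ZNF285BP, ZNF114 and ZNF473). TTCTGGGAA or its reverse complement, TTCCCAGAA, which was searched for after the printed windows had been read, was present in 16 of the 33 windows (48.5%) against 1.03% of all 35116 windows of this length. It was in 15 of 20 windows of the run (75%) and 1 of 13 outside it (7.69%). Members with these letters were in every class: 2 of 4 windows of lower genes, 3 of 5 of higher genes and 8 of 18 of genes not called. The printed windows, in which the letters were first seen, are all included in these counts. Their matches were thus fixed by the choice of letters. The core of the ETS motif, CCGGAAGT or its reverse complement ACTTCCGG, was in 8 of 33 windows (24.2%) against 4.14% of all windows. It contains a CpG and can overlap TTCTGGGAA or TTCCCAGAA by an end base at most. The windows of 3 pairs of members overlap (ZNF230 and ZNF230-DT, ZNF222 and ZNF222-DT, ZNF225-AS1 and ZNF225), and the members are copies of each other, so that these are not independent counts. A match in letters is not a measured binding site.

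CpG numbers overlapped between genes that were lower, higher or not called. The median was 19 CpGs per window over the 33 members, with a range of 2 to 49, against 14 over all windows, and the median ratio of observed to expected CpG was 0.797 against 0.579. The median number of CpGs was 17 for 4 lower genes, 19 for 5 higher genes and 18.5 for 18 genes that were not called. The ranges were 12 to 29 for the lower and 9 to 49 for the higher genes, and no test was made. For 6 members, the nearest RefSeq start lay over 1 kb from the listed start. Among them are the higher genes ZNF225 (1218 bases), ZNF546 (12926 bases) and ZNF541 (17292 bases). The window with 49 CpGs is that of ZNF541, and it may not be the promoter of the RNA counted.

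**Figure D1:**
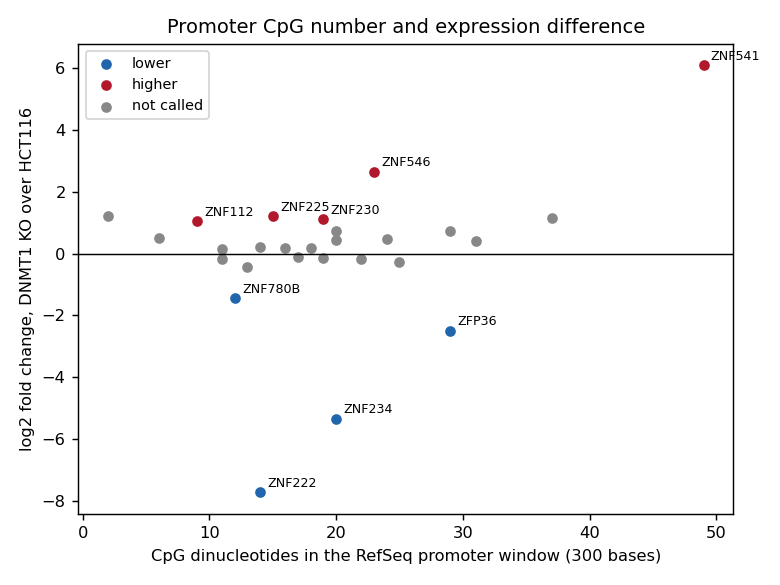
CpG dinucleotides in the 300-base RefSeq promoter window (x axis) against the log2 fold change of DNMT1 KO over HCT116 (y axis) for each tested member with a window, coloured by call. Lower genes (12 to 29 CpGs) and higher genes (9 to 49) overlap in CpG number. ZNF541 alone is at 49 CpGs, from a RefSeq start 17292 bases away from its listed start.

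The targeted gene was examined first. DNMT1 was at 153 ± 64.2 CPM (counts scaled to the TMM-adjusted library total; SD, n = 6) in HCT116, and at 14.1, 19.9, 21.5 and 22.3 CPM in the 4 DNMT1 KO libraries, a log2 fold change of -2.97 (SE 0.33, adjusted p = 1.738e-05). Library totals were 35418732 to 85991812 counts in HCT116 and 26700853 to 55732013 in DNMT1 KO. Of 8 epithelial markers, 6 were at 1 CPM or more in every library, while VIL1 and LGR5 were below 1 CPM in each. The summed level of the 8, carried mainly by KRT8, KRT18, KRT19 and EPCAM, was lower in DNMT1 KO (646 to 1431 CPM) than in HCT116 (2520 to 6130 CPM). EPCAM, CDH1, KRT8 and KRT18 were called lower, KRT19 and CDX2 were not called, and VIL1 was called higher (0.51 to 0.82 CPM in DNMT1 KO against at most 0.06 CPM in HCT116). Of 11 markers of fibroblasts, leukocytes and endothelium, 7 stayed below 1 CPM in every library (COL1A2, DCN, PDGFRA, PTPRC, CD3E, CD14 and CDH5). The summed level of the 11 was 10.2 to 17.9 CPM in DNMT1 KO and 6.40 to 20.1 CPM in HCT116, with LUM (0.73 to 4.83 CPM) higher in each DNMT1 KO library than in any HCT116 library, and the part of this in the results was not tested. In these bulk samples, fewer cells that express a gene and less RNA per cell cannot be told apart.

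To find which members differed between the lines, edgeR's quasi-likelihood test was fitted on all genes. A gene is called where the p-value adjusted over all tested genes is under 0.05 and the log2 fold change is beyond 1 in either direction. Of the 40 members, 33 had enough counts to be tested. In DNMT1 KO, 5 were called lower (15.2%, against 6.49% of all 19279 tested genes) and 6 were called higher (18.2%, against 7.42%). The levels of the lines did not overlap for 5 members that were lower in DNMT1 KO (6.79% of all genes) and for 7 that were higher (8.4% of all genes), and overlapped for the other 21. The higher ones without overlap include ZNF526, which was not called.

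Members moved in both directions, and in the order of tested members the largest decreases lay next to genes that were higher or not called. The immediate neighbours of ZNF222, ZNF222-DT and ZNF223, had too few counts for a test. The median log2 fold change of the 33 was 0.23, with 21 positive and 12 negative, against a median of -0.07 over all genes. This median was 0.42 without HCT116 replicate 1, 0.43 without HCT116 replicate 3, 0.39 without DNMT1 KO replicate 1, and it fell to 0.13 without DNMT1 KO replicate 2. With library totals as the only scaling, it was 0.44 and the median of all genes moved to 0.14, so that the difference between both medians was 0.30 under either scaling. This difference was smaller in fits that compare the lines within batches 1 and 2, since batches 3 and 4 hold 1 line each. It was 0.12 with a batch term over all libraries and 0.16 with that term over batches 1 and 2. In the same libraries without a batch term (replicates 1 to 3 of each line) it was 0.11, and in batch 2 alone it was 0.24. These fits share libraries, and the smaller difference cannot be credited to the batch term. In the run of 25, 3 of 19 tested members were lower and 4 higher (median 0.39), and outside it 2 of 14 were lower and 2 higher (median 0.17).

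**Figure D2:**
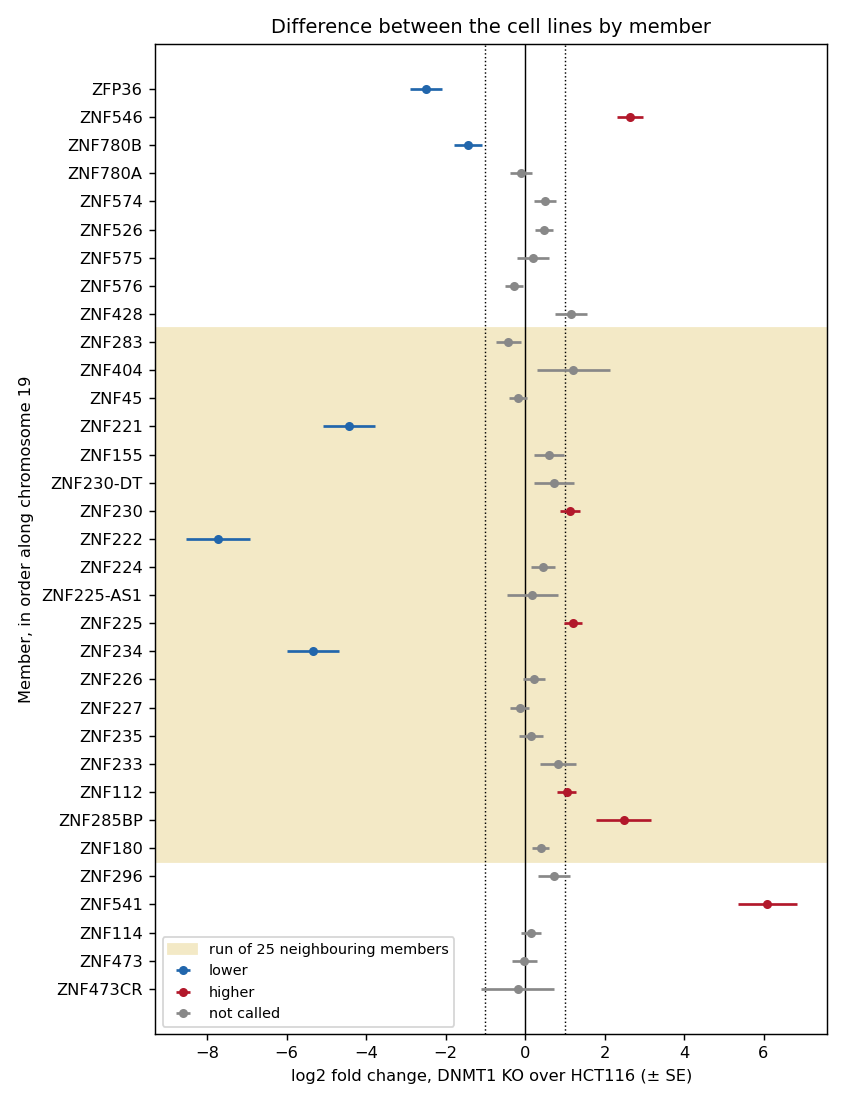
Log2 fold change of DNMT1 KO over HCT116 (x axis; bars, SE) for the 33 tested members in their order along chromosome 19 (y axis), coloured by call, with dotted lines at a log2 fold change of 1 in either direction. ZNF221, ZNF222 and ZNF234, the 3 lower genes of the shaded run, are separated by members that were higher or not called.

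**Figure D3:**
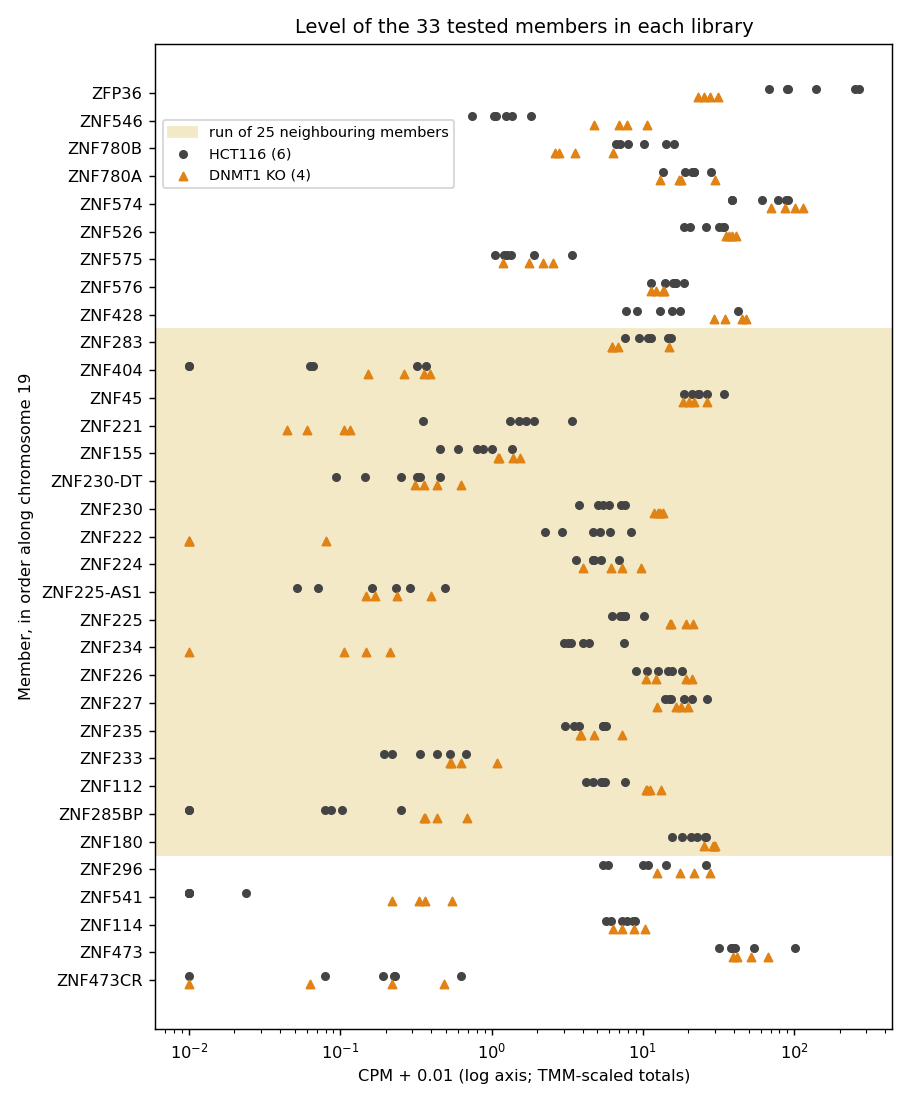
CPM plus 0.01 on a log axis (x axis) of the 33 tested members in each of 6 HCT116 libraries (circles) and 4 DNMT1 KO libraries (triangles), in their order along chromosome 19 (y axis). ZNF222 and ZNF234 reach 0 CPM, drawn at 0.01, in DNMT1 KO libraries, and ZNF541 is at 0 in 5 of the HCT116 libraries.

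ZNF222 showed the largest decrease among the members. It is a KRAB zinc finger gene at chr19:44025342-44033110. Its level was 2.26, 4.92 and 8.37 CPM (lowest, median and highest) in HCT116, and 0, 0.07, 0 and 0 CPM in DNMT1 KO replicates 1 to 4. A total of 1610 counts in HCT116 faced 4 in DNMT1 KO, all in replicate 2. The log2 fold change was -7.73 (SE 0.80, adjusted p = 8.227e-06), and the ratio of pooled counts per scaled total was 224 (95% interval 87.5 to 825, exact binomial, counting error only). Without DNMT1 KO replicate 2 the remaining libraries held no count, and the fitted log2 fold change was -10.99. Of its exon bases, 17.2% are shared with an unnamed gene on the same strand that had 0 counts in each library, and reads there would be dropped by default. This holds for both lines alike.

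ZNF234, a KRAB zinc finger gene at chr19:44141554-44160313, was at 3.01, 3.66 and 7.54 CPM (lowest, median and highest) in HCT116. In DNMT1 KO it was at 0.20, 0, 0.10 and 0.14 CPM. The groups were far apart, and the log2 fold change was -5.34 (SE 0.66, adjusted p = 4.468e-05). The ratio of pooled counts was 41.8 (95% interval 26.3 to 70.7) from 1349 and 18 counts.

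ZNF221, a KRAB zinc finger gene at chr19:43951223-43967709, was lower in HCT116 to begin with, at 0.34, 1.58 and 3.37 CPM (lowest, median and highest). In DNMT1 KO it was at 0.05, 0.11, 0.10 and 0.03 CPM, below each HCT116 library. The log2 fold change was -4.42 (SE 0.65, adjusted p = 1.883e-04). The ratio of pooled counts was 20.7 (95% interval 12.4 to 37.2), and 7.16% of its 50-base windows recur elsewhere on the main chromosomes, so that reads of a copy could be counted here or be lost.

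Summed over the coding genes of the run, the 3 lower genes made up 5.93 to 11.6% of the level in HCT116 and 0.11 to 0.20% in DNMT1 KO. The other coding genes of the run summed to 94.2 to 146 CPM in HCT116 and 125 to 169 CPM in DNMT1 KO, ranges that overlap. Next to the lower genes, ZNF230 starts 22.4 kb before ZNF222, ZNF225 starts 29.4 kb before ZNF234, and ZNF226 starts 23.5 kb after ZNF234. None of these neighbours was called lower. ZNF226, at 9.03, 13.6 and 18.3 CPM in HCT116 (lowest, median and highest) and 10.4, 19.2, 21.1 and 12.3 CPM in DNMT1 KO, had a log2 fold change of 0.23 (adjusted p = 0.6495) and overlapping groups.

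Outside the run, 2 members were called lower. ZFP36 encodes tristetraprolin, which binds AU-rich elements of mRNAs by CCCH fingers and speeds their decay, and is neither a C2H2 nor a KRAB protein. It was at 68.2, 115 and 268 CPM (lowest, median and highest) in HCT116 and at 23.2, 27.6, 31.4 and 25.5 CPM in DNMT1 KO, with no overlap. The log2 fold change was -2.49 (SE 0.41, adjusted p = 4.681e-04).

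ZNF780B, a KRAB zinc finger gene at chr19:40028260-40056231, was at 6.69, 9.02 and 15.97 CPM (lowest, median and highest) in HCT116 and at 2.63, 2.77, 6.30 and 3.58 CPM in DNMT1 KO. The highest DNMT1 KO library, replicate 3, lay just under the lowest HCT116 library. The log2 fold change was -1.43 (SE 0.36, adjusted p = 0.01319). The gene was not called without DNMT1 KO replicate 1 (log2 fold change -1.29) or without replicate 2 (-1.31). Its neighbour ZNF780A, whose start lies 40.9 kb away, had a log2 fold change of -0.10 (adjusted p = 0.8504).

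Of the members called higher, ZNF546 showed the largest increase among those above 1 CPM. This KRAB zinc finger gene, at chr19:39984134-40021038, was at 0.74, 1.15 and 1.80 CPM (lowest, median and highest) in HCT116 and at 6.95, 4.74, 10.7 and 7.89 CPM in DNMT1 KO, without overlap. The log2 fold change was 2.65 (SE 0.33, adjusted p = 4.508e-05). Its start lies 44.1 kb from that of ZNF780B, which was lower.

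The other 3 higher genes above 1 CPM belong to the run and had log2 fold changes from 1.05 to 1.21. ZNF225 was at 6.28, 7.52 and 10.1 CPM (lowest, median and highest) in HCT116 and at 15.4, 19.4, 21.4 and 15.05 CPM in DNMT1 KO, with a log2 fold change of 1.21 (SE 0.23, adjusted p = 0.001666). ZNF230 was at 3.77, 5.71 and 7.66 CPM in HCT116 and at 12.9, 12.6, 13.5 and 11.8 CPM in DNMT1 KO, with a log2 fold change of 1.12 (SE 0.25, adjusted p = 0.005593). All 3 encode KRAB zinc finger proteins. ZNF112 was at 4.18, 5.38 and 7.65 CPM in HCT116 and at 10.5, 13.1, 10.6 and 11.1 CPM in DNMT1 KO, with a log2 fold change of 1.05 (SE 0.24, adjusted p = 0.007536). No DNMT1 KO library overlapped an HCT116 library in any of the 3, but ZNF112 was not called without DNMT1 KO replicate 2 (log2 fold change 0.97).

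Further increases were called below 1 CPM, and these 2 genes are named after their values were seen. ZNF541, a zinc finger gene of meiotic germ cells, had 1 count in all HCT116 libraries (replicate 7) and 14, 18, 34 and 6 counts in the DNMT1 KO libraries, or 0.35, 0.32, 0.54 and 0.21 CPM. The log2 fold change was 6.09 (SE 0.75, adjusted p = 3.799e-05), and the ratio of pooled counts was 129 with a 95% interval of 22.4 to 5170. ZNF285BP, the pseudogene, was at 0, 0.07 and 0.24 CPM (lowest, median and highest) in HCT116 and at 0.43, 0.36, 0.68 and 0.35 CPM in DNMT1 KO. Its log2 fold change was 2.48 (SE 0.70, adjusted p = 0.02496), but it lost the call without DNMT1 KO replicates 1, 2 or 3 in turn, and 27% of its 50-base windows recur elsewhere, so that its counts are uncertain.

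Per exon length, the levels in HCT116 ran from 75.3 RPKM (counts scaled by library total and exon length) for ZFP36 down to 0 for ZNF284. ZNF574 at 14.1 and ZNF428 at 11.3 RPKM followed, and the coding members of the run had at most 5.58 RPKM, for ZNF45. ZNF222, at 2.45 RPKM in HCT116, was above its neighbours ZNF230 (0.93), ZNF225 (1.07), ZNF224 (0.70) and ZNF226 (1.94) there, and fell to 0.009 RPKM in DNMT1 KO. ZNF234 fell from 0.81 to 0.02 RPKM and ZNF221 from 0.62 to 0.03 RPKM.

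Among the 8 most abundant members that were not called, ZNF428 came closest. It was at 7.69, 14.2 and 42.7 CPM (lowest, median and highest) in HCT116 and at 47.7, 35.0, 29.3 and 45.5 CPM in DNMT1 KO, with a log2 fold change of 1.16 (SE 0.40, adjusted p = 0.06419). HCT116 replicate 1, at 42.7 CPM, was the only HCT116 library within the DNMT1 KO range, and without it the gene was called at a log2 fold change of 1.67. That library is also the only HCT116 library of batch 1, in which the log2 ratio between the lines was 0.16. With batch as a term over all libraries, the log2 fold change of ZNF428 was 0.69 (adjusted p = 0.1222). SRRM5 on the opposite strand shares 32.1% of its exon bases, and since no strand option is named for the counting, reads of both genes could not be told apart there.

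ZNF574 was at 38.6, 69.7 and 90.8 CPM (lowest, median and highest) in HCT116 and at 115, 86.9, 70.8 and 102 CPM in DNMT1 KO. ZNF526 was at 18.6, 29.1 and 34.3 CPM in HCT116 and at 41.3, 35.6, 37.2 and 38.7 CPM in DNMT1 KO. ZNF526 thus did not overlap between the lines, yet its log2 fold change was 0.47 (SE 0.23, adjusted p = 0.201). ZNF574 did overlap, at 0.51 (SE 0.28, adjusted p = 0.2721).

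ZNF296, a partner of pluripotency factors in stem cells, was at 5.44, 10.4 and 26.3 CPM (lowest, median and highest) in HCT116 and at 21.7, 17.6, 12.5 and 28.0 CPM in DNMT1 KO. Its log2 fold change was 0.72 (SE 0.40, adjusted p = 0.2726), and it was called at 1.13 without HCT116 replicate 1. In batch 1, which holds that library, the log2 ratio between the lines was -0.28. With batch as a term over all libraries, the log2 fold change of ZNF296 was 0.26 (adjusted p = 0.7234). ZNF473, a component of the U7 snRNP that processes histone pre-mRNA, was at 31.96, 39.9 and 101 CPM in HCT116 and at 41.9, 51.8, 67.1 and 39.7 CPM in DNMT1 KO. Its log2 fold change was -0.02 (SE 0.32, adjusted p = 0.9724).

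ZNF45, a KRAB zinc finger gene of the run, was at 18.7, 23.4 and 34.2 CPM (lowest, median and highest) in HCT116 and at 18.4, 26.6, 21.8 and 20.1 CPM in DNMT1 KO. Its log2 fold change was -0.18 (SE 0.23, adjusted p = 0.6749). ZNF180, the last gene of the run, was at 15.5, 21.8 and 26.3 CPM in HCT116 and at 25.4, 28.9, 29.8 and 29.3 CPM in DNMT1 KO, with a log2 fold change of 0.39 (SE 0.22, adjusted p = 0.2624). ZNF576, outside the run, was at 11.4, 16.01 and 18.7 CPM in HCT116 and at 13.7, 13.8, 11.3 and 12.2 CPM in DNMT1 KO, with -0.28 (SE 0.22, adjusted p = 0.4659). All 3 overlapped between the lines.

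The other 14 tested members that were not called overlapped between the lines without exception, with log2 fold changes from -0.42 (ZNF283) to 1.22 (ZNF404, below 1 CPM) and adjusted p-values from 0.2681 to 0.9219. They include ZNF224, a KRAB repressor, at 0.45 (adjusted p = 0.3645), of whose exon bases 40.5% are shared with ZNF225-AS1 on the opposite strand. In 7 members there were too few counts for a test: ZNF45-AS1, ZNF222-DT, ZNF223, ZNF284, ZNF285, ZNF229 and ZNF114-AS1. ZNF284 had 0 counts in each library and ZNF223 had 4, all in HCT116. For these, 44% and 45.7% of the exon bases are shared with the same unnamed gene that overlaps ZNF222.

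To ask whether the differences held within batches, the lines were compared inside those that hold both. Batch 1 has 1 library of each line and batch 2 has 2 of each, whereas batch 3 (DNMT1 KO replicate 4) and batch 4 (HCT116 replicates 7 to 9) hold 1 line each. With batch as a term in batches 1 and 2, 4 of 32 tested members were called lower, against 6.98% of all 18681 genes tested. Another 4 of the 32 were called higher, against 7.37% of all genes. ZNF222 (log2 fold change -7.76, adjusted p = 3.218e-04), ZNF234 (-5.77, 0.002241), ZNF221 (-4.22, 0.002664) and ZFP36 (-2.76, 5.308e-04) were the lower ones. ZNF546 (2.64, 0.002758), ZNF541 (7.23, 0.008918), ZNF230 (1.39, 0.01174) and ZNF225 (1.24, 0.01451) were the higher ones. ZNF780B (-1.41, 0.06492), ZNF112 (1.02, 0.05437) and ZNF285BP (2.72, 0.1327) missed the threshold. In batch 2 alone 4 lower genes remained and of the higher genes ZNF546 and ZNF541, while ZNF225 (1.22, 0.09413) and ZNF230 (1.20, 0.1005) kept their size. The share of all genes called was not taken for batch 2 alone.

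**Figure D4:**
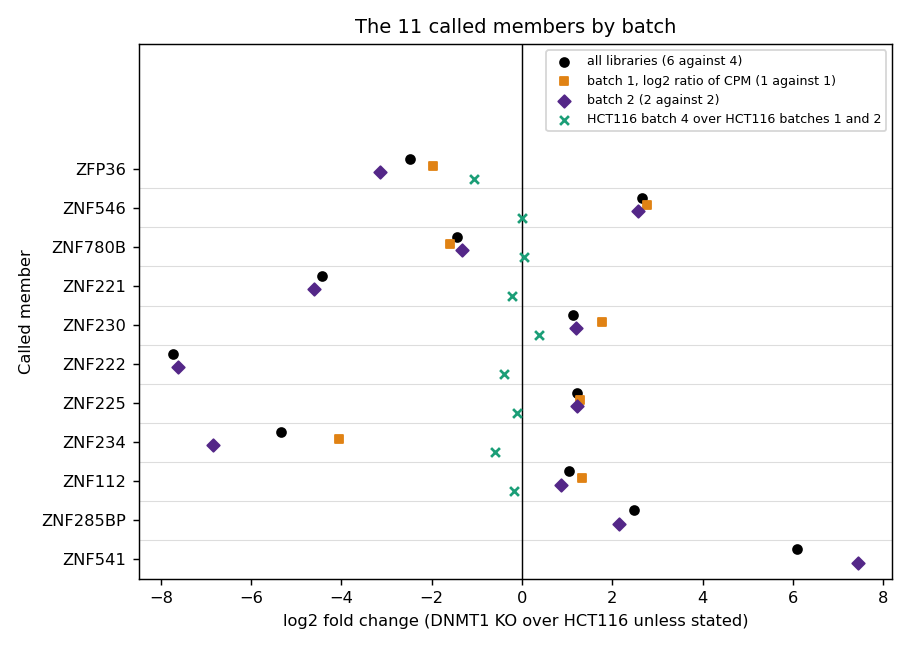
Log2 fold change (x axis) of the 11 called members (y axis) over all libraries (circles), in batch 1 (squares; log2 ratio of CPM, shown where both libraries have 5 counts or more), in batch 2 (diamonds), and between HCT116 batch 4 and HCT116 batches 1 and 2 (crosses; given for 9). Each gene's between-line values lie on 1 side of 0, and the crosses range from -1.07 (ZFP36) to 0.37 (ZNF230).

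The same members were then compared between HCT116 libraries, 3 of batch 4 against 3 of batches 1 and 2, as a measure of how far they vary in 1 genotype. Of 30 members tested by edgeR, 0 were called, against 8.03% of 18656 genes, and 3 had an unadjusted p under 0.05. These 3 were ZNF428 (log2 fold change -1.36, adjusted p = 0.05018), ZFP36 (-1.07, 0.1171) and ZNF473 (-0.87, 0.1382), all lower in batch 4. DESeq2 called 1 member, ZNF428 (adjusted p = 0.01619). Over the 30, the log2 fold change ran from -1.36 to 0.37 with a median of -0.31 and 23 negative values, against a median of 0.01 over all genes. These HCT116 libraries are also the controls of the comparison between lines.

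Genes around and akin to the members were compared by the same calls. Among the 303 other genes tested in the interval, 17 were lower (5.61%) and 37 higher (12.2%), with a median log2 fold change of -0.01. Of 153 zinc finger genes tested elsewhere on chromosome 19, 39 were lower (25.5%) and 4 higher (2.61%), with a median of -0.10. On other chromosomes, 13 of 265 were lower (4.91%) and 16 higher (6.04%), with a median of 0.15. The members lay between these groups in their share of lower genes and above them in their share of higher genes. No test of the difference was made, since neighbouring genes are not independent.

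**Figure D5:**
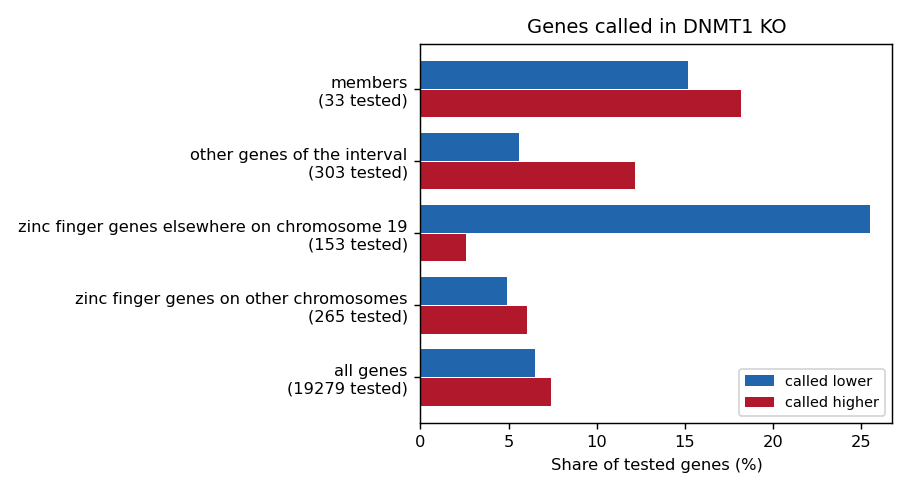
Share of tested genes called lower and higher in DNMT1 KO (x axis, percent) for the members, other genes of the interval, zinc finger genes elsewhere on chromosome 19, zinc finger genes on other chromosomes, and all genes (y axis). The members show 15.2% lower and 18.2% higher, against 25.5% and 2.61% for zinc finger genes elsewhere on chromosome 19.

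The partners through which KRAB zinc finger proteins act were examined as a list of 23 genes, of which 22 were tested. TRIM28, the KRAB-binding co-repressor, was at 952 ± 441 CPM (SD, n = 6) in HCT116 and at 1148, 887, 566 and 1095 CPM in DNMT1 KO, a log2 fold change of -0.04 (adjusted p = 0.9504). SETDB1, the methyltransferase it recruits, was at 39.4 ± 7.05 CPM in HCT116 and at 41.3, 56.8, 37.8 and 35.9 CPM in DNMT1 KO, at 0.12 (adjusted p = 0.7683). The list held 1 lower gene (4.55%, against 6.49% of all genes tested) and 3 higher genes (13.6%, against 7.42%), with a median log2 fold change of -0.07, as over all genes.

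HDAC1, a histone deacetylase of the NuRD complex, was the lower one, at 251 ± 53.9 CPM (SD, n = 6) in HCT116 and at 101, 129, 86.3 and 89.2 CPM in DNMT1 KO (log2 fold change -1.31, SE 0.24, adjusted p = 0.001334). TRIM24, a relative of TRIM28, rose from 22.9 ± 6.998 CPM to 70.6, 66.8, 54.2 and 57.6 CPM (1.44, SE 0.25, adjusted p = 7.367e-04). CBX5, which encodes HP1α, rose from 318 ± 82.8 CPM to 678, 590, 710 and 722 CPM (1.09, SE 0.24, adjusted p = 0.004832). ATF7IP2, a relative of the SETDB1 partner ATF7IP, rose with 1.06 (SE 0.30, adjusted p = 0.02649) but was not called without HCT116 replicate 7 or without DNMT1 KO replicate 1, 3 or 4. CBX5 was not called without HCT116 replicate 8. With batch as a term in batches 1 and 2, the log2 fold changes were -1.08 for HDAC1 (adjusted p = 0.03429), 1.41 for TRIM24 (0.01223), 1.49 for ATF7IP2 (0.01453) and 0.94 for CBX5 (0.02888), the last below the fold needed for a call. DAXX had too few counts for a test.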

How the data were processed

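RNA was poly(A) selected, made into stranded libraries and sequenced as 50 bp paired ends. The authors trimmed reads with TrimGalore 0.4.1, aligned the trimmed pairs to hg38 by bowtie2, an aligner without spliced alignment, kept those of mapping quality 10 or more and summed exonic reads per gene with featureCounts; no strand option is named. Each deposited table holds the unnormalised counts of 1 library. Reads that cross junctions or fit several copies are under-counted. Another 3 tables have no sample in the list and were not used. Symbols come from GENCODE 44 (58472 of 58884 IDs matched), promoters from RefSeq.

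The lines were compared by edgeR 4.0.16 under R 4.3.3 (TMM, filterByExpr, quasi-likelihood F test, group as the only term, two-sided, Benjamini-Hochberg over 19279 genes, called at 0.05 and a log2 fold change beyond 1), and the scripts were tested on simulated data. SE is the log2 fold change divided by the square root of F. Members named with values are the called ones, up to 10 in each direction at a mean of 1 CPM or more, and the 8 most abundant others by RPKM. The members, gene lists and rules were chosen with earlier results of these data known. The study describes the replicates as independent cultures. Intervals cover counting error only, and low counts are mostly even in 9 libraries (64.4 to 70%) and not in DNMT1 KO replicate 4 (39.9%), so that mates may be counted separately and the intervals are too narrow. Alternatives were other scalings, no filter, DESeq2 1.42.0, batch terms, halved counts, a replicate block and leaving out each library. The values of 1 marker gene are not reported here.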

Additional observations from a re-analysis of the deposited data

Results flagged for a closer look

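In 38 groups of libraries (each named member in each line), the highest or lowest library was compared with the rest by Dixon's test. In independent, normally distributed groups about 1 in 20 would be flagged, or 1.9 here, and 6 stood apart. These groups share libraries and some hold few counts, so that 1.9 is a rough guide only. Where the other libraries of a line are at 0, as for ZNF222 and ZNF541, any count is flagged. ZNF222 in DNMT1 KO replicate 2 was at 0.0711 CPM while the other DNMT1 KO libraries were at 0. ZNF541 in HCT116 replicate 7 was at 0.0139 CPM, a single count, while the other HCT116 libraries were at 0. In HCT116 replicate 3, ZNF234 was at 7.54 CPM against 3.01 to 4.38 in the others, ZNF225 at 10.1 CPM against 6.28 to 7.63, and ZNF473 at 101 CPM against 31.96 to 54.6. ZNF428 in HCT116 replicate 1 was at 42.7 CPM against 7.69 to 17.7 CPM.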

How the results depend on the processing

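Over 20 alternatives, ZNF222, ZNF234, ZNF221, ZFP36 and ZNF546 kept their direction and their call, as did ZNF541 in the 19 that could test it. In batch 2 alone, 2 members were called higher and 1 co-repressor gene was called (CBX1). ZNF780B lost its call in 6 alternatives, ZNF112 in 5 and ZNF285BP in 8, and ZNF428 gained one in 4. ZNF473 was at 0.18 with library totals, 0.01 without HCT116 replicate 2, 0.32 without HCT116 replicate 3, 0.05 without DNMT1 KO replicate 1 and 0.07 without DNMT1 KO replicate 4 (-0.18 to 0.32 when leaving out 1 library), against -0.02 over all, and ZNF45 at 0.0272 with library totals; the cause was not tested. Between HCT116 batches, 1 member was called with RLE factors, library totals, no filter or DESeq2, and 0 to 2 when leaving out 1 library. Leaving out 1 library of either line gave 4 to 5 lower and 4 to 8 higher members. For alternatives other than the batch term in batches 1 and 2, the share of all genes called was not taken. Those counts thus describe which members kept a call and not how they compare with all genes.

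Same-numbered libraries deviated together with correlations of 0.55, -0.27 and 0.37, against -0.30 to 0.60 for differently numbered ones. The highest, 0.60, was between HCT116 replicate 2 and DNMT1 KO replicate 3, so that the numbers do not pair the libraries throughout. For replicate 1, number and batch cannot be told apart, since these libraries make up batch 1. With the replicate block (replicates 1 to 3), 4 members were lower and 4 higher and 2 co-repressor genes were called, against 4, 4 and 3 in the same libraries without it. Halving the counts of 9 libraries left 27 members testable, 5 lower and 4 higher. Depth limits statements on members below 1 CPM.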
